A study of Mus musculus with 3 samples.

Results

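The genes described here are 48 mouse genes of mitosis and the mitotic spindle, measured in clones of CT26 cells that carry the microRNA cluster miR-17~92 at different levels. They were taken as the probe sets whose annotation names 1 gene and that gene is on the list, averaged per gene. Of the 48, 47 had such a probe set among the 19938 genes with a value, and cyclin B1 (Ccnb1) was not analysed here. CT26 is a mouse colon carcinoma line, kept in medium with 10% fetal bovine serum. Cells were transfected with a vector that carries GFP and puromycin resistance and holds either a control microRNA or the cluster, kept under puromycin, and GFP-positive cells were cloned by dilution. The groups are miR-Ctrl (here Ctrl, the control microRNA), miR-17~92Med (Med, medium expression of miR-17~92) and miR-17~92Hi (Hi, high expression), all CT26, all selected and all clonal. The design text speaks of 3 subclones per group, but there is 1 value column per group, and the sources used here do not say how subclones entered a column. With 1 sample per group there is no replicate error and no test, so higher and lower describe these columns alone.

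Mitosis is driven by cyclin-dependent kinase 1 with cyclins A and B, and by the polo and aurora kinases. The spindle, built by kinesin motors and microtubule-binding proteins, attaches to kinetochores, and the spindle checkpoint holds back the anaphase-promoting complex until every chromosome is attached. Many of these genes are transcribed in G2 and mitosis under the DREAM and B-Myb complexes and FOXM1, which act through a promoter element called the cell cycle genes homology region (CHR) and often through CCAAT boxes bound by NF-Y. Their mRNA levels in a culture therefore follow the share of cycling cells, and proliferation markers such as Mki67 are read in tumours for that reason. In a bulk sample, fewer cells in mitosis and less mRNA per cell cannot be told apart.

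The cluster's 6 mature microRNAs fall under 4 seeds, shown because they are what the Med and Hi cells were given more of. The seed (bases 2 to 8) is in capitals, and sequences are RefSeq's, from chromosome 14 of GRCm38.p6.
mmu-miR-17-5p: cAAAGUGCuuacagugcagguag
mmu-miR-20a-5p: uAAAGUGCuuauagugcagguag
mmu-miR-18a-5p: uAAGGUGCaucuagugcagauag
mmu-miR-19a-3p: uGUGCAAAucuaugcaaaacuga
mmu-miR-19b-3p: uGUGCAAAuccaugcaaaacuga
mmu-miR-92a-3p: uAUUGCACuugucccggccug
miR-17-5p and miR-20a-5p share the seed AAAGUGC, and miR-19a-3p and miR-19b-3p share GUGCAAA. No target site was searched in the mitotic genes.

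Promoters of 6 members follow, the 4 with the largest difference between Hi and Med past the level filter (Ccnb2, Bub1, Kif15 and Anln) and a pair with identical values in both (Plk1 and Cenpf). Each runs from 250 bases before to 50 after the gene's start in the direction of the gene (RefSeq, GRCm38.p6). Capitals mark the CHR core TTTGAA and the CCAAT box, each on either strand.
Ccnb2, chr9:70421505-70421804, minus strand: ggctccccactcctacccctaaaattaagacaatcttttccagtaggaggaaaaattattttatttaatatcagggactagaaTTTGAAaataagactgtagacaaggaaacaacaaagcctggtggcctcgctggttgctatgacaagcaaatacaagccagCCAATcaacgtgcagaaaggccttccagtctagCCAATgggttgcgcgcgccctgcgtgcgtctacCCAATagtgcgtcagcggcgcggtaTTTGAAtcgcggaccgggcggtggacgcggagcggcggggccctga
Bub1, chr2:127831810-127832109, minus strand: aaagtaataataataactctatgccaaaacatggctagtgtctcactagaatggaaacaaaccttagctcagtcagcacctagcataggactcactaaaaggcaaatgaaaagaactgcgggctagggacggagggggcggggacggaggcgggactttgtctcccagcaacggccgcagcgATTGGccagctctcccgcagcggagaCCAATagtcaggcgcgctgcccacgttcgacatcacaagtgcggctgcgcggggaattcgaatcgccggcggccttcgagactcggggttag
Kif15, chr9:122950831-122951130, plus strand: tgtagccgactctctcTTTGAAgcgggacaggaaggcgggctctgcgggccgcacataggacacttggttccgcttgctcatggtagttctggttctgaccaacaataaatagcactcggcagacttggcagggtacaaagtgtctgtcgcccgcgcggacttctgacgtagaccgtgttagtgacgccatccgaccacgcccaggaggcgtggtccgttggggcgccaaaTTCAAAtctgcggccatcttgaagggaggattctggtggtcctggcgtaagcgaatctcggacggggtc
Anln, chr9:22389157-22389456, minus strand: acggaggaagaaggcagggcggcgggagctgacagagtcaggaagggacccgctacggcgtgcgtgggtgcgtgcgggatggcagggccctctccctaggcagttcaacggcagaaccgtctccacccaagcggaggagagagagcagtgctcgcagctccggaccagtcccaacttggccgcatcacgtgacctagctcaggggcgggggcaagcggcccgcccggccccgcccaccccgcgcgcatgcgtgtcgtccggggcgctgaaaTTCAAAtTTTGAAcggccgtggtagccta
Plk1, chr7:122159185-122159484, plus strand: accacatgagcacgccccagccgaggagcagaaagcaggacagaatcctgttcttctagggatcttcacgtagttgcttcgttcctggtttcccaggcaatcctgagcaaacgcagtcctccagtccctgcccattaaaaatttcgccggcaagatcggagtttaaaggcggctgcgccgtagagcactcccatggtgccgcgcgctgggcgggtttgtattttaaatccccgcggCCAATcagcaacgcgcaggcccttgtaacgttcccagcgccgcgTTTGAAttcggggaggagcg
Cenpf, chr1:189688037-189688336, minus strand: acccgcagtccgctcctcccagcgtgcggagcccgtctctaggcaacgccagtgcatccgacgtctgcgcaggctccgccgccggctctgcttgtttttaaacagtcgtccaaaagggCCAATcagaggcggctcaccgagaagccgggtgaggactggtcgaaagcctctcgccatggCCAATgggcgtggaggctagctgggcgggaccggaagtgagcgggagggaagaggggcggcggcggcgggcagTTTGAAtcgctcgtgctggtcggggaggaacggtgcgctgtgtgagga
The Ccnb2 promoter held 3 CCAAT boxes, beginning at bases -87, -54 and -21, and TTTGAA cores at -167 and 5, counted from 1 at the gene's start. Bub1 held 2 CCAAT boxes and no TTTGAA core, while Kif15 and Anln each held 2 cores and no CCAAT box. Plk1 held 1 of each, and Cenpf 1 core and 2 boxes. The core and the box were thus found both in promoters of genes that differed most and in promoters of genes with identical values.

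Before the members, the columns themselves. Values are log2 levels as deposited, over 35556 probe sets. The interquartile range was 2.42 in Ctrl, then 3.12 in Med and 3.08 in Hi, so the Ctrl column stood apart in its spread. Med and Hi held exactly the same value in 15551 probe sets (43.7%). Of the epithelial and colon markers, 4 of 12 passed the level filter, and the epithelial adhesion genes Epcam (at 6.15 in Ctrl, at 5.14 in Med and at 5.14 in Hi) and Cdh1 (at 6.63 in Ctrl, at 6.26 in Med and at 6.26 in Hi) did not. Of the 12, 10 were lower than Ctrl in both Med and Hi, among them Krt8 (at 8.92 in Ctrl, at 7.28 in Med and at 7.32 in Hi) and Cdx1 (at 8.95 in Ctrl, at 7.24 in Med and at 7.45 in Hi). Krt18 went the other way, at 7.97 in Ctrl, at 11.41 in Med and at 12.28 in Hi. Krt19 was at the identical value 7.50 in Ctrl and Med and at 7.87 in Hi. Over all 19938 genes, 11238 were lower in Med than in Ctrl and 11187 were lower in Hi than in Ctrl. The summed level of the 12 epithelial and colon markers was 87.6 in Ctrl, with 80.04 in Med and 81.9 in Hi. That sum takes in the markers short of the filter, and Krt18, which rose, as well. The 9 mesenchymal markers summed to 74.7 in Ctrl, with 77.5 in Med and 77.7 in Hi, but 6 of them, Col1a1, Col1a2, Col3a1, Thy1, Pdgfrb and Dcn, were lower in Med and Hi than in Ctrl. The other 3, Fn1, Pdgfra and Vim, were higher, with Fn1 at 8.69 in Ctrl, at 13.45 in Med and at 13.32 in Hi. None of the 4 leukocyte and 3 endothelial markers with a value passed, and all of them were lower than Ctrl in both Med and Hi. The filter asked that a gene's mean over the 3 columns reach the median of all genes, 7.13, and 9969 genes and 44 members did. Kif20b, Ttk and Top2a fell short of it and are given with their values.

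The first comparison sets Hi against Med. Members were lower in Hi than in Med almost throughout: of the 47, 42 were lower, 5 were identical and 0 were higher. Past the filter 39 of 44 were lower, where 31.3% of all genes past the filter were lower, 22.8% higher and 45.9% identical. That count holds for values as deposited: of the 47, quantile normalization left 41 lower and 6 higher, cyclic loess 42 and 5, centring on all probe sets 47 and 0, and centring on genes past the filter 40 and 7. Centring on all probe sets moved every difference by -0.01, so the 5 identical members, like any other identical gene, counted as lower. The share of all genes lower under these scalings is not given here. The members' median difference was -0.40 on the log2 scale, against 0.00 over all genes past the filter. At least 2-fold lower were 5 of the 44, with 0.863% of all genes as the background, and at least 1.5-fold lower were 13, with 3.48%. None was 2-fold or 1.5-fold higher (background 0.682% and 1.73%). The genes at least 2-fold lower were Ccnb2, Bub1, Kif15, Anln and Mad2l1, with Ttk as a sixth among those short of the filter. These genes act in different steps of mitosis, so the description goes role by role.

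**Figure D1:**
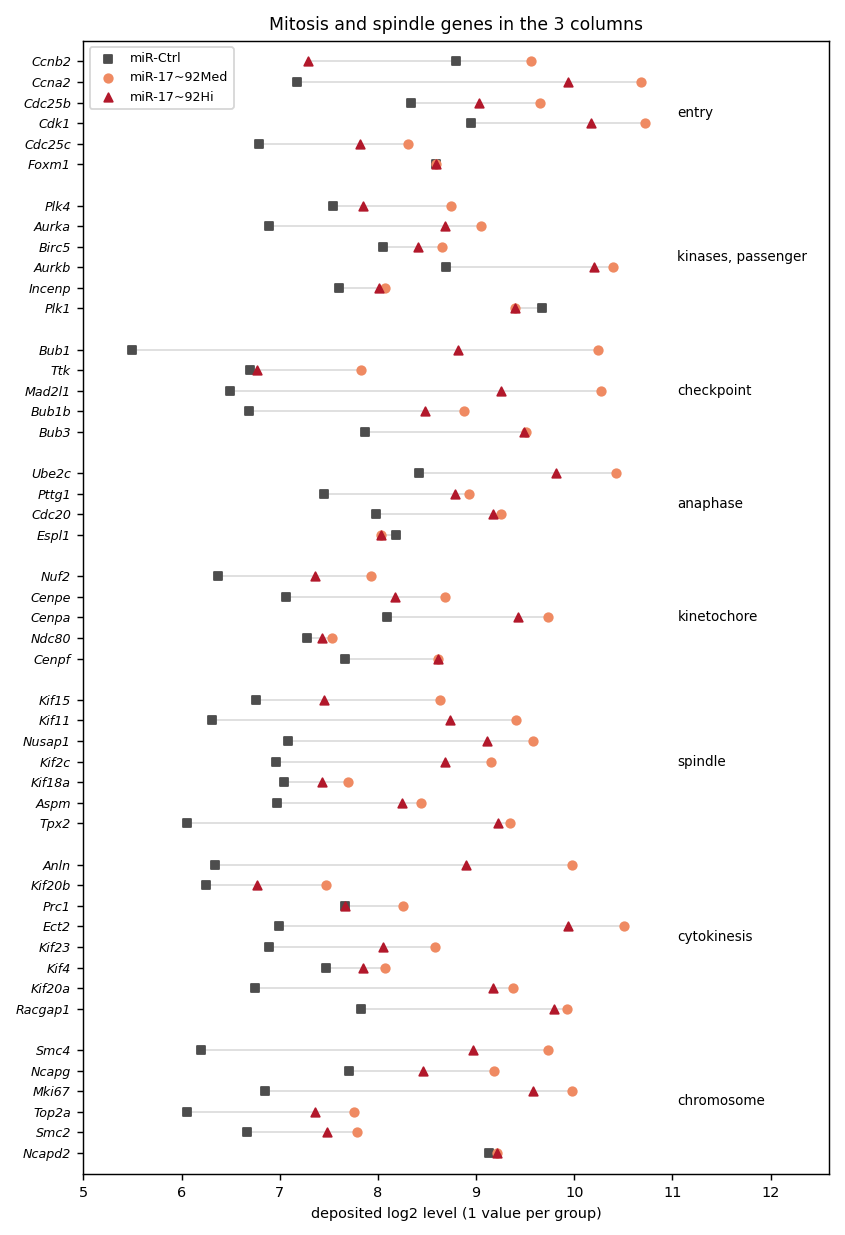
Deposited log2 level of the 47 members (x axis) in Ctrl (squares), Med (circles) and Hi (triangles), 1 value per group, with genes in rows by role. As deposited, Med lies to the right of Hi in 42 rows, and in the other 5 the markers of Med and Hi coincide.

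Among the genes of mitotic entry, cyclin B2 stood furthest apart of all members. Ccnb2, a partner of Cdk1, was at 8.79 in Ctrl, at 9.56 in Med and at 7.29 in Hi. Hi was 4.83-fold lower than Med (log2 difference -2.27), and it lay below Ctrl too. Cyclin A2 (Ccna2), which acts in S phase and G2, was at 7.18 in Ctrl, at 10.69 in Med and at 9.93 in Hi, a difference of -0.75 between Hi and Med. The phosphatase Cdc25b, which activates Cdk1, was at 8.33 in Ctrl, at 9.65 in Med and at 9.03 in Hi (-0.62). Its relative Cdc25c was at 6.79 in Ctrl, at 8.31 in Med and at 7.82 in Hi (-0.49), and the kinase Cdk1 itself at 8.95 in Ctrl, at 10.73 in Med and at 10.17 in Hi (-0.56). The transcription factor Foxm1 had the same value, 8.60, in all 3 columns. Of the 6 genes of entry with a value, 5 were lower in Hi and 1 identical, with a median of -0.59.

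The spindle checkpoint had the lowest median of the 8 roles, -1.02, with 5 of 5 genes lower and 3 of them 2-fold. Bub1, a kinase that recruits checkpoint proteins to the kinetochore, was at 5.49 in Ctrl, at 10.25 in Med and at 8.81 in Hi, 2.70-fold lower in Hi than in Med (-1.44). Mad2l1, whose protein binds and inhibits Cdc20, was at 6.49 in Ctrl, at 10.27 in Med and at 9.26 in Hi (-1.02). The checkpoint kinase Ttk, short of the filter, was at 6.70 in Ctrl, at 7.83 in Med and at 6.77 in Hi (-1.06), so that Hi lay near Ctrl. Bub1b, a subunit of the mitotic checkpoint complex, was at 6.69 in Ctrl, at 8.88 in Med and at 8.48 in Hi (-0.39). Bub3, which carries Bub1 and Bub1b to kinetochores, was at 7.87 in Ctrl, at 9.51 in Med and at 9.49 in Hi (-0.02). The checkpoint genes therefore ranged from nearly level to 2.70-fold lower.

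Genes of the polo and aurora kinases and the chromosomal passenger complex differed less: their median was -0.22, and no gene was 2-fold apart. Plk4, the kinase of centriole duplication, was at 7.54 in Ctrl, at 8.74 in Med and at 7.85 in Hi (-0.89). The spindle pole kinase Aurka was at 6.89 in Ctrl, at 9.05 in Med and at 8.69 in Hi (-0.37). Within the passenger complex, Birc5 (survivin) was at 8.05 in Ctrl, at 8.66 in Med and at 8.41 in Hi (-0.25), and the kinase Aurkb at 8.70 in Ctrl, at 10.40 in Med and at 10.21 in Hi (-0.19). The scaffold Incenp, at 7.60 in Ctrl, at 8.07 in Med and at 8.01 in Hi, differed by -0.06. Plk1, the main mitotic polo kinase, was at 9.67 in Ctrl and had the identical value 9.40 in Med and Hi.

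Of the 4 genes of anaphase, 3 were lower in Hi and the separase gene Espl1 was identical (8.18 in Ctrl, 8.03 in Med and Hi). Ube2c, the ubiquitin-conjugating enzyme of the anaphase-promoting complex, was at 8.42 in Ctrl, at 10.42 in Med and at 9.81 in Hi (-0.61). The securin gene Pttg1 was at 7.45 in Ctrl, at 8.93 in Med and at 8.79 in Hi (-0.14), and the complex's activator Cdc20 at 7.98 in Ctrl, at 9.25 in Med and at 9.18 in Hi (-0.08). Securin, separase and Cdc20 thus lay close together in Hi and Med, and Ube2c lay apart from them.

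Kinetochore and centromere genes had a median of -0.30, and none of the 5 reached 1.5-fold. Nuf2, a subunit of the NDC80 complex that binds microtubules, was at 6.37 in Ctrl, at 7.93 in Med and at 7.36 in Hi (-0.57). Ndc80, of the same complex, was at 7.27 in Ctrl, at 7.54 in Med and at 7.43 in Hi (-0.11). The kinetochore motor Cenpe was at 7.06 in Ctrl, at 8.68 in Med and at 8.17 in Hi (-0.51), and the centromeric histone Cenpa at 8.09 in Ctrl, at 9.73 in Med and at 9.43 in Hi (-0.30). Cenpf, a large kinetochore-associated protein, was at 7.67 in Ctrl and at 8.61 in both others. Subunits of 1 complex therefore did not share 1 difference.

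All 7 spindle motors and microtubule binders were lower in Hi than in Med, with a median of -0.46. Kif15, a motor that helps Kif11 keep the spindle bipolar, was at 6.76 in Ctrl, at 8.64 in Med and at 7.45 in Hi (-1.18). Kif11, the motor that pushes the poles apart, was at 6.31 in Ctrl, at 9.40 in Med and at 8.74 in Hi (-0.67). Nusap1, which bundles spindle microtubules, was at 7.08 in Ctrl, at 9.58 in Med and at 9.11 in Hi (-0.47). The microtubule depolymerase Kif2c was at 6.97 in Ctrl, at 9.15 in Med and at 8.69 in Hi (-0.46). Kif18a, which limits chromosome movement at the spindle's middle, was at 7.04 in Ctrl, at 7.69 in Med and at 7.43 in Hi (-0.26), and the spindle pole protein Aspm at 6.97 in Ctrl, at 8.44 in Med and at 8.25 in Hi (-0.19). Tpx2, which activates Aurka, was at 6.06 in Ctrl, at 9.34 in Med and at 9.22 in Hi and differed least (-0.12).

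The 8 genes of the central spindle and cytokinesis were lower in Hi too, with a median of -0.55. Anln (anillin), which organises the contractile ring, was at 6.34 in Ctrl, at 9.98 in Med and at 8.90 in Hi (-1.09). The cytokinesis motor Kif20b, short of the filter, was at 6.24 in Ctrl, at 7.47 in Med and at 6.77 in Hi (-0.70). Prc1, which crosslinks the microtubules of the midzone, was at 8.26 in Med and at the identical value 7.66 in Hi and Ctrl. Ect2, which activates RhoA at the furrow, was at 7.0 in Ctrl, at 10.51 in Med and at 9.94 in Hi (-0.58), and its partner Racgap1 at 7.83 in Ctrl, at 9.93 in Med and at 9.80 in Hi (-0.13). Kif23, the motor that binds Racgap1 in the centralspindlin complex, was at 6.89 in Ctrl, at 8.58 in Med and at 8.06 in Hi (-0.53). The midzone motors Kif4 (at 7.47 in Ctrl, at 8.07 in Med and at 7.85 in Hi) and Kif20a (at 6.75 in Ctrl, at 9.38 in Med and at 9.17 in Hi) differed by -0.23 and -0.21.

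In the chromosome group, 5 of 6 genes were lower in Hi, with a median of -0.40. The condensin subunits Smc4 (at 6.20 in Ctrl, at 9.73 in Med and at 8.97 in Hi) and Ncapg (at 7.71 in Ctrl, at 9.18 in Med and at 8.45 in Hi) differed by -0.76 and -0.73. Smc2, Smc4's partner in every condensin, was at 6.67 in Ctrl, at 7.79 in Med and at 7.48 in Hi (-0.31), while the condensin subunit Ncapd2 was at 9.14 in Ctrl and at 9.21 in both others. The proliferation marker Mki67 was at 6.85 in Ctrl, at 9.98 in Med and at 9.58 in Hi (-0.40). Topoisomerase II alpha (Top2a) had 2 probe sets that disagreed: 1 was at 9.18 in Ctrl, at 10.96 in Med and at 10.27 in Hi, the other at 2.94 in Ctrl, at 4.55 in Med and at 4.45 in Hi. Their mean difference between Hi and Med was -0.40, made of -0.69 and -0.10, and with the brighter probe set alone Top2a passed the filter.

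**Figure D2:**
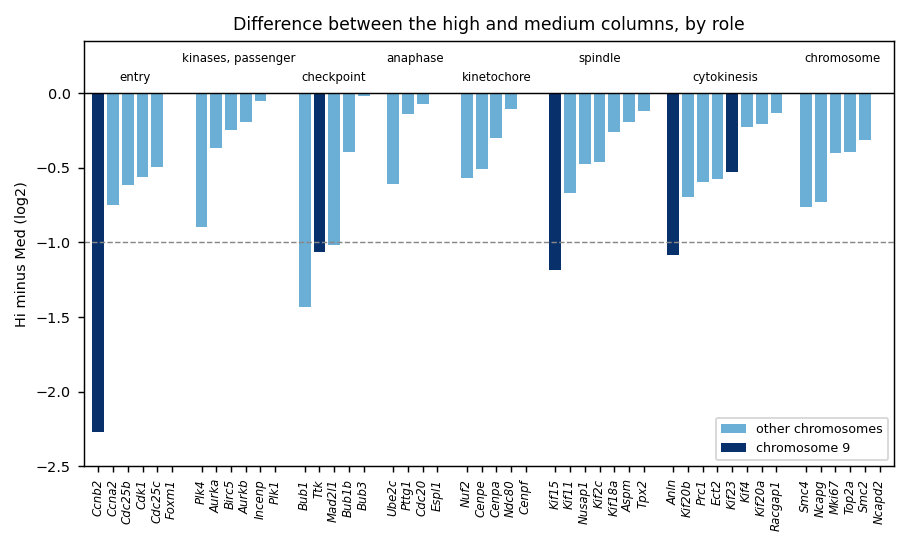
Log2 difference between Hi and Med as deposited (y axis) for the 47 members (x axis), in the 8 roles, with members on chromosome 9 in dark bars and 2-fold lower as a dashed line. Ccnb2 reaches -2.27, 6 bars pass the dashed line, and 5 genes (Foxm1, Plk1, Espl1, Cenpf and Ncapd2) have no bar because their values are identical.

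The size of the difference went with the chromosome in 1 respect. Of the 6 members at least 2-fold lower in Hi, 4 lie on chromosome 9 (Ccnb2, Kif15, Anln and Ttk), and the remaining member there, Kif23, was lower by 0.53. The other genes of chromosome 9 were low in Hi as well: of 547 past the filter that are no member, 60.7% were lower and 6.76% higher, with a mean of -0.19, the lowest of 20 chromosomes. On it 11.7% of those genes were at least 1.5-fold lower, and 2.38% at least 2-fold. Chromosomes 6, 10, 17 and 18 also had means below -0.1, and chromosome 15 was the highest with 0.14. Means on the remaining 14 chromosomes lay between -0.04 and 0.02. The part of these chromosome-wide differences in the members' values was not tested beyond the values that follow.

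Over the 42 members on other chromosomes, 37 were lower in Hi, 5 were identical and 2 (Bub1 and Mad2l1) were 2-fold lower, with a median of -0.38. On the 14 chromosomes with means near 0, 31 of 33 members were lower and 2 identical, with a median of -0.40. When the mean of the other genes of its chromosome was taken from each member's difference, 43 of 47 were below 0 and 4 above, with a median of -0.39. Ccnb2 was then at -2.08 and Bub1 at -1.43, both still past 2-fold, and Kif15 (-0.99), Mad2l1 (-0.90), Anln (-0.89) and Ttk (-0.87) were under it. The lower level of the members as a group was thus much the same with and without the chromosome means, while the number past 2-fold was not.

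**Figure D3:**
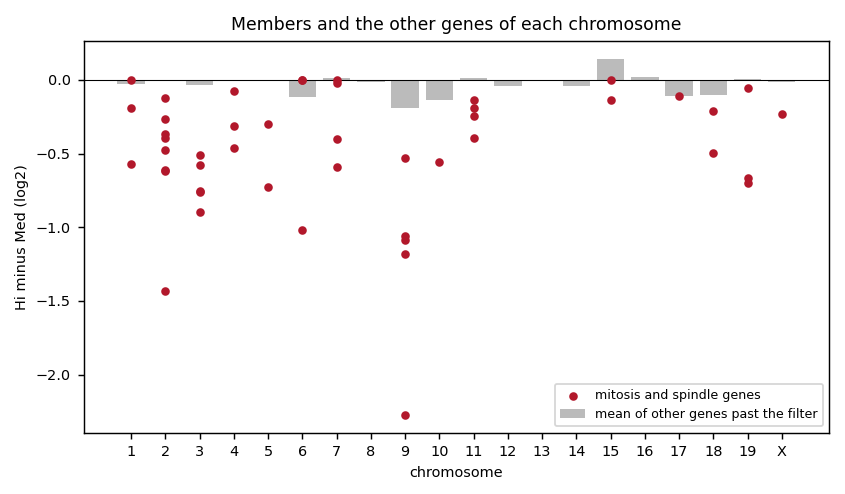
Log2 difference between Hi and Med as deposited (y axis) by chromosome (x axis). Bars are the mean of the genes past the filter that are no member, and points are the 47 members; the bar of chromosome 9 is at -0.19 and that of chromosome 15 at 0.14, and no point lies above 0.

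Genes of mitosis that are no members were set beside them from 5 lists of 106 genes (further kinetochore, spindle, condensin and cohesin, anaphase-promoting complex and entry genes). Of their 83 genes past the filter, 54 were lower in Hi than in Med, 5 higher and 24 identical, with a median of -0.11 against -0.40 for the members. The further kinetochore and centromere genes came nearest to the members, with 19 of 21 lower, 2 identical and a median of -0.47. There Sgo1 (shugoshin, which protects centromeric cohesion) was at 6.01 in Ctrl, at 8.32 in Med and at 7.14 in Hi (-1.19). The checkpoint protein gene Zwilch was at 6.42 in Ctrl, at 8.66 in Med and at 7.50 in Hi (-1.16), and Oip5, which helps load Cenpa, at 5.75 in Ctrl, at 8.29 in Med and at 7.44 in Hi (-0.85). Of the subunits and regulators of the anaphase-promoting complex, 5 of 15 were lower, 2 higher and 8 identical, so that list had a median of 0.00. Its inhibitor Fbxo5 was at 7.10 in Ctrl, at 8.32 in Med and at 7.52 in Hi (-0.80), and its subunits Anapc2 (0.29) and Cdc26 (0.23) were the higher ones.

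In the further spindle list 12 of 20 were lower and 1 higher, none by 2-fold, led by the midbody gene Cep55 (-0.59), Ckap2l (-0.46) and Kif18b (-0.43). Among 15 condensin and cohesin genes 9 were lower and 2 higher, led by Ncapg2 (-0.80), the cohesin acetyltransferase gene Esco2 (-0.66) and Ncapd3 (-0.65). Of 12 entry regulators 9 were lower and 0 higher. Mastl (greatwall), the kinase that holds back the phosphatase opposing Cdk1, was at 6.25 in Ctrl, at 9.49 in Med and at 8.32 in Hi (-1.17). Its substrate gene Arpp19 differed by -0.70 and cyclin F (Ccnf) by -0.47.

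The regulators that act on these genes' promoters were mixed. Of 14 DREAM, B-Myb and E2F genes past the filter, 9 were lower in Hi, 1 higher and 4 identical, with a median of -0.09. The repressor E2f8 was at 7.51 in Ctrl, at 9.57 in Med and at 8.0 in Hi (-1.57), Mybl1 at 6.98 in Ctrl, at 8.20 in Med and at 7.29 in Hi (-0.91), and the pocket protein gene Rbl1 at 6.84 in Ctrl, at 8.75 in Med and at 7.95 in Hi (-0.80). Mybl2, the gene of B-Myb, was at 10.06 in Ctrl, at 8.91 in Med and at 8.63 in Hi (-0.27). Against Ctrl, 10 of the 14 were higher in Med and 4 lower, Mybl2 among the lower. Those counts lie near the background, since 62.7% of all genes past the filter were higher in Med and 25.7% lower. The DNA replication genes, which act earlier in the cycle, had 22 of 32 lower, 0 higher and 10 identical, with a median of -0.19, and 0 of 32 were 2-fold apart. The primase subunit Prim1 (-0.85), the polymerase Pole (-0.66) and the reductase subunit Rrm2 (-0.66) led them. Of 9 genes of cell cycle inhibitors and stress responders 3 were lower, 4 higher and 2 identical, with Gadd45a at -0.98, Gadd45b at 0.49 and Cdkn1b (p27) at -0.20. Cdkn1a was not analysed here.

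**Figure D4:**
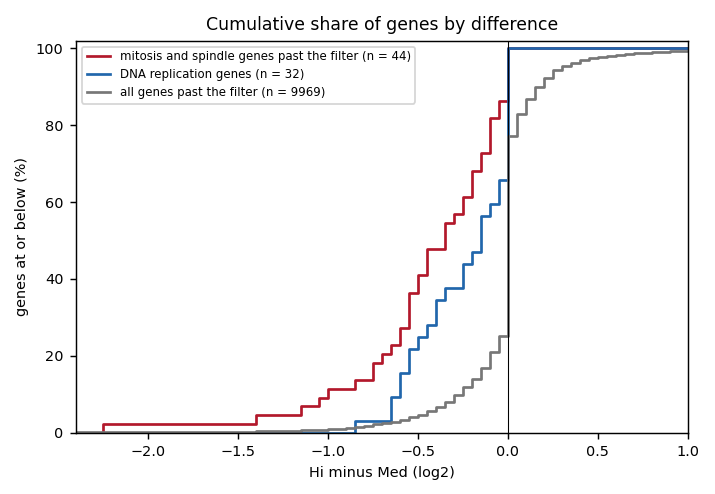
Share of genes (y axis, percent) whose log2 difference between Hi and Med is at or below the value on the x axis, for the 44 members past the filter, 32 DNA replication genes and all 9969 genes past the filter. From -2.25 to -0.05 the members' curve lies left of the others, with a median of -0.40 against -0.19 and 0.00. Curves are drawn at every 0.05, so the step at 0 holds identical values and differences between -0.05 and 0.

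Against Ctrl, members were higher in both lines with the cluster, as were many other genes. Of the 44 members, Med exceeded Ctrl at least 2-fold in 32 and was lower by that much in 0, with backgrounds of 34.9% and 8.70%. At any size 41 were higher (background 62.7%), 2 lower (25.7%) and 1 identical (11.6%), and 38 were at least 1.5-fold higher (45.4%). The median difference was 1.63 against 0.42 over all genes past the filter. Hi exceeded Ctrl at least 2-fold in 26 members and was lower by that much in 1, with backgrounds of 33.5% and 8.40%. At any size 39 were higher (background 62.5%), 3 lower (25.3%) and 2 identical (12.2%), and 32 were at least 1.5-fold higher (44.2%). Here the median was 1.21 against 0.39. The filter, a mean over the 3 columns, bears on these backgrounds: over all 19938 genes the median was -0.20 for Med and -0.19 for Hi against Ctrl, of the opposite sign. Of the 47 members without the filter, 35 were 2-fold higher in Med and 27 in Hi, where 18.3% and 17.5% of all 19938 genes were. These comparisons share the Ctrl column, whose narrower spread stands beside every value here, and its part in them was not tested. Quantile normalization left 26 of 43 members 2-fold higher in Med, with 1 lower, and 22 in Hi, with 2 lower. Centring on genes past the filter, chosen after seeing the data, left 23 of 44 in Med and 16 in Hi, with medians of 1.03 and 0.67. Over all genes past the filter, those 2-fold apart in Med were 3475 higher and 867 lower as deposited. Quantile normalization gave 2485 and 1875, and centring on genes past the filter 2282 and 1746. Cyclic loess gave 2408 and 1121, and centring on all probe sets 4192 and 469. In Hi those counts were 3335 and 837 as deposited, and 2450 and 1781 with quantile normalization. For Hi, centring on genes past the filter gave 2230 and 1637, and centring on all probe sets 4050 and 416. The median of all those genes between Med and Ctrl, 0.42 as deposited, was 0.72 with columns centred on all probe sets, 0.13 with cyclic loess, -0.09 with quantile normalization and -0.17 with centring on genes past the filter.

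Bub1 lay furthest from Ctrl, with 10.25 in Med against 5.49 in Ctrl (4.75) and 8.81 in Hi against the same value (3.32). Mad2l1 (3.79 in Med and 2.77 in Hi), Anln (3.64 and 2.55), Smc4 (3.53 and 2.77), Ect2 (3.52 and 2.94) and Ccna2 (3.51 and 2.75) followed in Med. Tpx2, at 9.34 in Med and 9.22 in Hi against 6.06 in Ctrl, was the second furthest in Hi (3.17). In Ctrl, Bub1, Mad2l1, Anln, Smc4 and Tpx2 lay below that column's median over all probe sets, 6.95, and Ect2 and Ccna2 above it. The 4 leukocyte markers lay between 5.12 (Adgre1) and 7.95 (Cd3e) in Ctrl, so these large differences start from low Ctrl values. All 5 checkpoint genes and 6 of 7 spindle genes were 2-fold higher in Med than in Ctrl. The polo and aurora group had 3 of 6, and Plk1 depended on the scaling. It differed by -0.27 in both lines as deposited, by -1.31 in Med and -1.26 in Hi with quantile normalization, by -1.23 and -1.21 with cyclic loess, and by 0.03 and 0.02 with centring on all probe sets. Ccnb2 was the 1 member 2-fold lower in Hi than in Ctrl as deposited (-1.5), and Plk1 joined it with quantile normalization and cyclic loess. In Med, Ccnb2 differed from Ctrl by 0.77 as deposited, by 0.33 with cyclic loess, by 0.17 with centring on genes past the filter and by -0.07 with quantile normalization.

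As deposited, the levels did not run in the order of the labels. Med was above both Hi and Ctrl in 42 of the 47 members, and in 39 of the 44 past the filter (88.6%), where 27.2% of all genes past the filter were so placed. The other 5 were identical in Med and Hi, so no member had its deposited value in Med between those of Ctrl and Hi. With quantile normalization Med was above both in 40 of 47 and between them in 3 (Bub3, Ccnb2 and Cenpf), and with cyclic loess in 42 and 1 (Cenpf). With centring on genes past the filter those counts were 38 and 4 (Bub3, Cenpf, Ndc80 and Prc1), and with centring on all probe sets 47 and 0. In the last, the 5 members identical in Med and Hi as deposited were above Hi by 0.01 alone. In Hi as deposited, Foxm1 and Prc1 were identical to Ctrl, and Ttk (0.07), Ncapd2 (0.08) and Ndc80 (0.16) were close to it. Plk1 (-0.27), Espl1 (-0.15) and Ccnb2 were below Ctrl in Hi, and the other members were above it. With centring on genes past the filter 14 of 47 were below Ctrl in Hi. The 27.2% holds for deposited values alone, and the shares of all genes so placed under the other scalings are not given here.

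What the members share beyond their roles includes their promoters. Of the 40 members in RefSeq's promoter table, 29 (72.5%) held TTTGAA, against 13.4% of 8052 genes past the filter and 20.2% of all 27025 genes of the table. CCAAT was held by 28 (70.0%), against 42.4% and 41.1%. Both were held by 24 (60.0%), against 6.56% and 8.97%, and neither by 7 (17.5%), against 50.7% and 47.7%. These members have 43 promoters, since 3 have more than 1 listed start, and in none did a core overlap a box. Within the 150 bases before the start alone, TTTGAA was in 37.5% of members and 6.14% of genes past the filter, the remaining cores lying after the start or further before it. The 8 members Ccna2, Cdc25c, Aurkb, Incenp, Kif20a, Tpx2, Foxm1 and Smc4 had no entry matched.

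Members with and without the motifs were set side by side by how far Hi lay below Med, with no test. The 29 with TTTGAA had a median difference of -0.40 and included the 4 identical genes Plk1, Cenpf, Espl1 and Ncapd2, and the 10 without it that have a value had a median of -0.54. The 24 with both motifs had a median of -0.38, with 6 of them 1.5-fold lower and all 4 of those identical genes among them, and the 15 lacking one or both had a median of -0.57, with 7 of them 1.5-fold lower. For CCAAT the medians were -0.40 in 27 members with it and -0.52 in 12 without. Bub1 and Mad2l1 were 2-fold lower without a core, and Mad2l1 without a box as well. A match to such short letters is a description of the sequence and not a bound site.

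**Figure D5:**
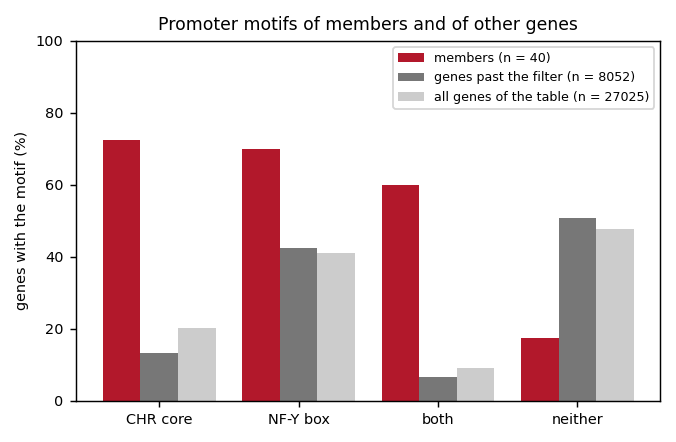
Share of genes (y axis, percent) with the CHR core, the NF-Y box, both or neither in the promoter window, for 40 members, 8052 genes past the filter and all 27025 genes of the table. The core is in 72.5% of members and 13.4% of genes past the filter, and both motifs are in 60.0% and 6.56%.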

How the data were processed

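Expression was measured on an Affymetrix array in 3 samples, 1 per group, and grouped by their titles. Labelled cRNA was made from 100 ng of RNA by linear amplification, per the labels' protocols. The deposited values are taken as log2 from their range, 2.13 to 14.8, since no base is given. The submitters' processing notes name Affymetrix Expression Console and GCRMA, with no version, role or order. Probe sets of 1 gene (21789, of which 21698 matched RefSeq's GRCm38.p6 table by gene number) were averaged per gene, while 1621 named several genes and 12146 none.

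Log2 differences were computed in Python 3.11.15 with pandas 2.3.3, and cyclic loess with limma 3.58.1. No test was run, because each group has 1 sample, and the number of arrays limits the precision. Counting was tested on simulated data. Promoter letters (TTTGAA and CCAAT, or TTCAAA and ATTGG on the other strand) were matched exactly. By rule, members at least 1.5-fold apart between Hi and Med, and the largest and smallest differences of each role, have their values given. The 3 genes of each further list with the largest difference are named, many of them with that difference alone. Members and lists were chosen with earlier results of these data known. Cdkn1a, planned to be named, is not reported here. Alternatives covered probe set choice, scaling, filter, fold and promoter window. No per-sample column was left unmapped (0).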

Additional observations from a re-analysis of the deposited data

How the results depend on the processing

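No paired analysis was possible because each group has 1 sample, and leaving out a replicate was likewise impossible. No value past 2-fold as deposited changed sign under the alternatives run. Plk1 in Med against Ctrl, under 2-fold as deposited, was at -1.31 with quantile normalization and 0.03 with centring on all probe sets. For Hi against Med, the 5 members at least 2-fold lower became 3 with quantile normalization, 2 after taking off chromosome means, 2 without the members of chromosome 9 and 13 at 1.5-fold. The median stayed between -0.31 and -0.41 under all alternatives. With quantile normalization 6 members, and with cyclic loess 5, had a small positive difference, and 7 did when columns were centred on genes past the filter. That centring, chosen after seeing the data as were both chromosome alternatives, gave medians of 1.03 for Med and 0.67 for Hi against Ctrl, and 16 members 2-fold higher in Hi. The members 2-fold lower than Ctrl, 0 in Med and 1 in Hi, became 1 and 2 with quantile normalization and with cyclic loess. The share of members with TTTGAA was 37.5% in the shorter window. Where counts moved with a scaling, the cause was not tested. The table gives no detection call or background, so which low values lie above background was not analysed here.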

Other observations

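Promoters with both motifs were also looked at in genes that are no member. The further mitotic, regulator and DNA replication lists were not left out of them. Of 506 such genes past the filter whose promoter held TTTGAA and CCAAT, 27 (5.34%) were at least 1.5-fold lower in Hi than in Med and 2 (0.395%) higher. Of 4078 with neither, 117 (2.87%) were lower and 62 (1.52%) higher. The median was 0.00 in both sets, and no test was run.

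Exact equality between columns was common beyond Med and Hi. Of the genes past the filter, 1046 (10.5%) had the same value in all 3 columns, among them Foxm1, Cdkn2a (8.78) and Cdkn2d (7.48). Rrm2 (9.38) and Gadd45a (10.23) had the same value in Hi and Ctrl and a higher one in Med (10.04 and 11.21), the pattern seen for Prc1. The sources used here do not name the step that gives identical values.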
